A study of Saccharomyces cerevisiae with 10 samples.

Results

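The genes nearest to the chromosome ends of *Saccharomyces cerevisiae* were followed in 3 groups of cultures that differed in the plasmid-borne allele of *SUP35*, the gene for the translation termination factor eRF3. A gene was taken as subtelomeric when it started within the first 15000 bases of a nuclear chromosome, or ended within 15000 bases of the outermost gene end on the right arm. This gave 262 genes at 32 chromosome ends, out of 6579 nuclear genes, with 4 to 11 genes at each end. A further 3 genes lay inside these windows and were left out by the rule, which lists them by name. The rule used position only and no measured value. *PCA1*, which ended 14980 bases before the outermost gene end on the right arm of chromosome II, was just inside the limit, and YPL278C, which started at base 15053 of chromosome XVI, was just outside it.

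Subtelomeres are among the rapidly rearranging regions of the yeast genome. Next to the telomeric repeats lie X elements and, at many ends, the longer Y′ elements, which carry helicase genes. Proximal to these lie members of gene families that have spread from end to end, among them genes for sugar use (*MAL*, *HXT*), cell wall proteins (*PAU*, *FLO*), vitamin synthesis (*SNZ*, *SNO*, *THI*) and protein sorting (*COS*). The Sir2, Sir3 and Sir4 proteins can silence genes placed close to a telomere, and many subtelomeric genes are weakly expressed in growing cells.

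The mutant cultures carried *sup35-218*, a nonsense allele of *SUP35*, on a *LEU2* plasmid after plasmid shuffling (stage 3, strain 218-L-14-D1690, n = 3). They were compared with cultures that carried wild-type *SUP35* on a *LEU2* plasmid at the same stage (L-14-D1690, n = 4) and with the starting cultures, which carried wild-type *SUP35* on a *URA3* plasmid (stage 1, U-14-D1690, n = 3). All 3 strains shared the labelled genotype, MATa with the nonsense alleles ade1-14(UGA) and trp1-289(UAG), the auxotrophic alleles ura3-52, leu2-3,112, lys2 and his3-d200, and the chromosomal *SUP35* replaced by *HIS3MX* (SUP35::HIS3MX), so that the plasmid was the only source of eRF3 in every culture. Between stage 1 and stage 3 the plasmid marker and the passage through plasmid shuffling changed together with the stage, and their parts cannot be told apart. The study's methods name medium lacking uracil or leucine (SC-U or SC-L), so the medium may have changed with the marker too. The study calls the replicates biological, at least for stage 1, and the sources used here do not say whether they are separate transformants, so the p-values measure the spread between these cultures, which may be partly technical.

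Sequencing yielded 3044096 to 4861009 counts per culture. *SUP35* itself was at 2185, 1833 and 1919 CPM (counts scaled to the TMM-normalized library total) in sup35-218 cultures, 809, 546, 505 and 547 CPM in SUP35 stage 3 cultures and 406, 421 and 481 CPM in SUP35 stage 1 cultures. *URA3* was at or below 94.4 CPM in all stage 3 cultures and at 829 to 1091 CPM in SUP35 stage 1 cultures, as the plasmid markers in the study's methods require. *LEU2* separated the groups less clearly, with 6454 to 7221 CPM in sup35-218 cultures, 1733 to 2743 CPM in SUP35 stage 3 cultures and 1434 to 1853 CPM in SUP35 stage 1 cultures, so the wild-type groups overlapped. The mating type did not follow its label. The 4 α-specific genes examined summed to 753 to 1042 CPM in sup35-218 cultures, 1384 to 1680 CPM in SUP35 stage 3 cultures and 1424 to 1830 CPM in SUP35 stage 1 cultures, whereas the 7 **a**-specific genes summed to 103 to 123, 99.3 to 246 and 251 to 630 CPM in the same order of groups. The silent cassette genes *HMLALPHA1* and *HMLALPHA2*, which lie at the left end of chromosome III, had between 0 and 3 counts in every culture and were not tested. Every window of read length in both genes (100%) also occurs elsewhere in the genome. A read from them can be discarded or placed on another copy, so their low counts are not read as a level.

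The subtelomeric genes were weakly represented. Their mean count over the 10 cultures had a median of 11.9, against 280.9 for all other nuclear genes. Together they took 1.38% to 1.54% of all counts in sup35-218 cultures, 1.12% to 1.22% in SUP35 stage 3 cultures and 1.14% to 1.31% in SUP35 stage 1 cultures. A single gene, *HXK1* on the right arm of chromosome VI, which encodes a hexokinase, had 4689, 5287 and 6249 CPM in sup35-218 cultures and 2901 to 3331 CPM in SUP35 stage 3 cultures. Of the 262 genes, 148 (56.5%) had enough counts to be tested, against 89.0% of nuclear genes. Among the remaining 114 genes, 38 had no count in any culture, and 76 had few. All 25 subtelomeric genes that lie inside a longer gene were at 0 in every culture, as were all 118 such genes of the whole genome, 104 of which lie on the strand opposite to their host. A count of 0 for a nested gene is therefore not read as a level, and reads of a gene and an overlapping antisense partner cannot be told apart.

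Many subtelomeric genes could not be separated from their copies. The share of each gene's 150-base windows that occurs exactly elsewhere in the genome was taken as its repeated fraction, because the reads were 150 bases long. It exceeded 10% in 138 subtelomeric genes (52.7%), against 1.65% of the other nuclear genes, and exceeded 90% in 71. Values of these genes are uncertain, since a read from one copy can be discarded or placed on another. Of the 148 tested genes, 64 were repeated in this sense. In the comparison of sup35-218 with SUP35 at stage 3 described next, 6 of these 64 rose and 19 fell, with a median log2 fold change of -0.30. Of the 84 other tested genes 20 rose and 20 fell, with a median of 0.04. Over all genes tested there, 10.7% rose and 12.6% fell.

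The main comparison asked which subtelomeric genes differed between cultures with the nonsense allele and cultures with the wild-type allele at the same stage. Genes of sugar and sugar alcohol use were among those that rose in sup35-218 cultures, namely *MAN2*, *MAL12*, *MAL32*, *MAL11* and *HXT15*, with log2 fold changes of 1.02 (*HXT15*) to 2.20 (*MAN2*). Among those that fell were 9 of 22 tested genes in annotated telomere features with a Y′ element and 2 chaperone-like genes (*HSP32* and *HSP33*). Also lower were 2 aryl-alcohol dehydrogenase genes and several small open reading frames of unknown function. In all, 26 of 148 tested genes (17.6%) were higher and 39 (26.4%) were lower in sup35-218 cultures by edgeR's quasi-likelihood test, with an adjusted p below 0.05 and a log2 fold change (log2FC) past 0.5. Over all 5856 genes tested, 10.7% were higher and 12.6% were lower. The median log2FC of the subtelomeric genes was -0.11, against -0.01 for all genes, and the median size of the change was 0.59, against 0.28. In either direction, 65 subtelomeric genes (43.9%) were called, against 23.3% of all genes. The 89 subtelomeric genes with a mean count of 50 or more gave 19 higher and 26 lower calls, against 10.4% and 12.1% of all genes above that count (22.5% in either direction).

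With stage 1 as the baseline, 29 genes were higher and 41 were lower in sup35-218 cultures, where 14.7% and 16.5% of all genes were called (31.2% in either direction). Among genes with a mean count of 50 or more, 22 were higher and 28 lower, where 14.7% and 16.3% of all such genes were called (31.0% in either direction). Between SUP35 stage 3 and SUP35 stage 1, 13 genes were higher and 12 were lower, where 7.21% and 6.63% of all genes were called (13.8% in either direction). Among those with a mean count of 50 or more, 10 were higher and 9 lower, where 7.4% and 6.85% of all such genes were called (14.3% in either direction). The median log2FC in these comparisons was -0.07 and -0.08. The first 2 comparisons share the sup35-218 cultures and each shares its wild-type cultures with the third, so the 3 counts are not independent.

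**Figure D1:**
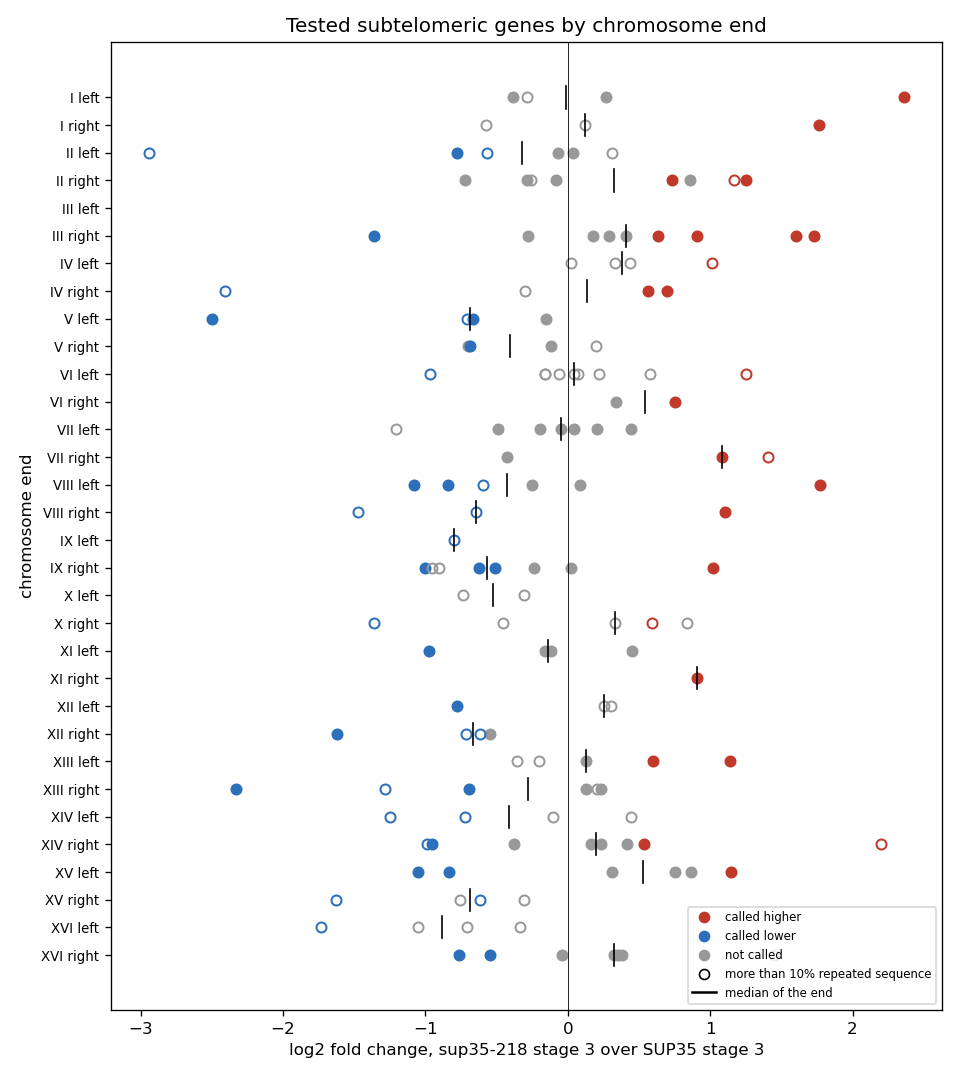
Log2 fold change between sup35-218 stage 3 and SUP35 stage 3 cultures (x axis) for each tested subtelomeric gene, by chromosome end (y axis). Colours mark the calls, open circles mark genes with more than 10% repeated sequence, and bars mark the median of each end. The end medians run between -0.88 (left end of XVI) and 1.09 (right end of VII), and the left end of III has no tested gene.

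The direction differed between ends and often within an end. In the main comparison, 17 ends held at least 1 gene that rose, 21 held at least 1 that fell, and 9 held both. Over all genes tested, 10.7% rose and 12.6% fell, so an end with several tested genes can hold a call without being unusual. Only 3 ends held neither: the left ends of III and VII and the left end of X. Medians were below 0 at 16 ends and above 0 at 15. The right end of VII had the highest median (1.09, 3 tested genes), carried by *MAL11* and *MAL12*. The left end of XVI had the lowest (-0.88, 4 tested genes), and all 7 of its genes exceeded 10% repeated sequence. At the right end of II 3 of 8 tested genes rose and none fell, and at the right end of III 4 of 9 rose and 1 fell. At the left ends of II and V and the right ends of XII and XIII 3 genes fell and none rose, of 6, 4, 4 and 6 tested. Between SUP35 stage 3 and SUP35 stage 1 cultures, 16 ends held no gene that changed, where 7.21% of all genes were higher and 6.63% lower. Genes of 1 end are neighbours and not replicates, so no test was made for an end.

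The change did not run steadily with distance. Among genes 0 to 5 kb from the end, 39 of 98 were tested, 5 rose and 10 fell. Between 5 and 10 kb, 49 of 81 were tested, 7 rose and 13 fell. Between 10 and 15 kb, 60 of 83 were tested, 14 rose and 16 fell. In the next 15 kb, outside the set, 185 of 213 genes were tested, and 34 rose and 28 fell. The share that fell was 25.6%, 26.5%, 26.7% and 15.1% in these bins, beside 12.6% of all genes tested. The share that rose was 12.8%, 14.3%, 23.3% and 18.4%. In the bin outside the set, the rising share was thus close to the 17.6% of all tested subtelomeric genes. It was also above the 10.7% of all genes tested, so the excess of rises was not particular to the set. The median mean count was 3.55 in the outermost bin and 200.1 in the bin from 15 to 30 kb, so detection changed along the same axis.

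*MAN2*, which encodes a mannitol dehydrogenase near the right end of chromosome XIV, showed the largest rise of the genes described here whose cultures did not overlap. It had 300.3, 328 and 345 CPM in sup35-218 cultures, 76.1, 83.4, 78.1 and 44.3 CPM in SUP35 stage 3 cultures and 40.8, 91.5 and 61.2 CPM in SUP35 stage 1 cultures. The log2FC was 2.20 (SE 0.22, adjusted p = 1.3e-05, edgeR) against SUP35 stage 3 and 2.31 against SUP35 stage 1. Both wild-type groups lay far below every sup35-218 culture. About 24.9% of the *MAN2* sequence is repeated, and its relative *DSF1* lies outside the windows.

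*MAL32* and *MAL12* encode maltases, which split maltose into glucose, in the *MAL3* locus at the right end of II and the *MAL1* locus at the right end of VII. *MAL32* had 248, 255 and 278 CPM in sup35-218 cultures, 116, 105, 149 and 93.2 CPM in SUP35 stage 3 cultures and 78.9, 101 and 57.0 CPM in SUP35 stage 1 cultures. *MAL12* had 39.4, 39.0 and 36.4 CPM, against 16.3, 15.1, 14.99 and 10.997 CPM in SUP35 stage 3 cultures. The log2FC was 1.17 (SE 0.17) for *MAL32* and 1.41 (SE 0.18) for *MAL12*, with adjusted p = 1.8e-04 and 6.5e-05 by edgeR. The 2 coding sequences are 1755 bases long and differ at 8 positions, and 50.5% of the windows of each are shared, so the split between the loci is uncertain while both values point the same way. *MAL11*, the α-glucoside transporter gene next to *MAL12*, has no repeated window and had 107, 102 and 212 CPM, against 84.6, 57.3, 76.8 and 45.5 CPM in SUP35 stage 3 cultures (log2FC 1.09, adjusted p = 4.9e-03, edgeR), with replicate 3 of sup35-218 well above the other 2.

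The other genes of the *MAL3* locus did not follow *MAL32*. *MAL31*, the maltose permease gene that shares its upstream region with *MAL32*, had 197, 167 and 211 CPM in sup35-218 cultures and 271, 163, 231 and 146 CPM in SUP35 stage 3 cultures (log2FC -0.08, adjusted p = 0.785). *MAL33*, the activator gene, had a log2FC of -0.28 (adjusted p = 0.159). In all, 3 of 7 tested genes of the *MAL*, *IMA* and *MPH* families rose and none fell (edgeR, 0 at an unadjusted p below 0.05, and 0 by DESeq2). Over all genes tested, 10.7% rose and 12.6% fell. *HXT15*, a hexose transporter gene at the left end of IV with 81.0% repeated windows, had 14.1, 16.7 and 14.6 CPM, against 6.32, 7.56, 7.76 and 8.25 CPM in SUP35 stage 3 cultures. *HXT16* and *HXT17* were not called. *HXK1* also rose (log2FC 0.75, SE 0.16, adjusted p = 2.7e-03).

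The upstream sequences of *MAN2*, *MAL32* and *MAL12* are shown because these genes carry the rise, and those of *MAL32* and *MAL12* show how alike the copies are. They run from 400 to 101 bases before the start codon in the R64 genome (RefSeq copy), read 5′ to 3′ towards the gene (chrXIV:776401-776700, minus strand; chrII:804951-805250, plus strand; chrVII:1076199-1076498, plus strand). Capitals mark matches to AGGGG, the core of the stress response element, and to the core of Mig1-type sites, read as the letters CCGGGG or the letters CTGGGG or the letters GCGGGG or the letters GTGGGG, on either strand.
MAN2: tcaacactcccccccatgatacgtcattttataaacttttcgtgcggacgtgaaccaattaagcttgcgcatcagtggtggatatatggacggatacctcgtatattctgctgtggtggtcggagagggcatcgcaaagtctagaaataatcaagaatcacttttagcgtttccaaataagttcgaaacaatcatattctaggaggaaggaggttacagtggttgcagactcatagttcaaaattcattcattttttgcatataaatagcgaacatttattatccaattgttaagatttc
MAL32: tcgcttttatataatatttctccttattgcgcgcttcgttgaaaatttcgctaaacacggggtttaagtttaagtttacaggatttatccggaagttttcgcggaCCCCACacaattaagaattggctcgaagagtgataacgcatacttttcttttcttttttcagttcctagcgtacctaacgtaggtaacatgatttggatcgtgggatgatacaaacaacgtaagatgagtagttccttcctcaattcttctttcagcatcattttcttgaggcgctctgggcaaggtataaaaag
MAL12: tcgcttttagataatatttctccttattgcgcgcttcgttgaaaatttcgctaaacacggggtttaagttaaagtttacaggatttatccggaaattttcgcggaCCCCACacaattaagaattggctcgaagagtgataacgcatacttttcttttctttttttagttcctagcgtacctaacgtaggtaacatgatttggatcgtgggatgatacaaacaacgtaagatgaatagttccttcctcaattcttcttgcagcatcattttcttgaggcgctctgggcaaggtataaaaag
*MAN2* has no match in this window. *MAL32* and *MAL12* each have 1 Mig1-type match, read on the reverse strand, and the 2 windows differ at 6 of 300 positions. Of the genes that rose and have a RefSeq entry, 4 of 23 (17.4%) hold a Mig1-type match in this window, against 21.9% of the 192 windows of all subtelomeric genes and 15.1% of all 5904 windows of that length. AGGGG is in 4 of the same 23 (17.4%), against 26.6% of all subtelomeric and 23.9% of all windows. These matches are letters only and do not show binding.

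*PCA1*, which encodes a cadmium exporter, had 187, 180.0 and 178 CPM in sup35-218 cultures, 82.4, 59.2, 88.6 and 73.9 CPM in SUP35 stage 3 cultures and 80.1, 89.9 and 87.1 CPM in SUP35 stage 1 cultures (log2FC 1.25, SE 0.12, adjusted p = 9.2e-06). *IMD2*, which encodes IMP dehydrogenase, the first enzyme of guanine nucleotide synthesis, had 169, 179 and 177 CPM, against 80.9, 97.6, 67.2 and 80.0 CPM in SUP35 stage 3 cultures and 60.2, 65.5 and 67.4 CPM in SUP35 stage 1 cultures. Its log2FC was 1.11 (adjusted p = 1.3e-05). The sup35-218 cultures of both genes differed from one another by far less than from the wild type.

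YML131W, which resembles oxidoreductases, had 568, 649 and 768 CPM in sup35-218 cultures, 251, 311, 352 and 289 CPM in SUP35 stage 3 cultures and 359.9, 453 and 334 CPM in SUP35 stage 1 cultures (log2FC 1.14, adjusted p = 6.5e-05). Its neighbour *ERO1*, the thiol oxidase that forms disulfides in the endoplasmic reticulum, had 733, 849 and 898 CPM, against 413, 543, 637 and 596 CPM in SUP35 stage 3 cultures (log2FC 0.60, adjusted p = 4.8e-03). YIR042C, the outermost gene at the right end of IX, had 51.8, 47.3 and 56.7 CPM, against 29.5, 23.6, 23.8 and 25.4 CPM (log2FC 1.02). *FLO10*, a flocculin gene, was 0.91 higher on the log2 scale (SE 0.18, adjusted p = 1.5e-03). It was the only gene with counts at the right end of XI, where the other 4 genes were at 0 in every culture.

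**Figure D2:**
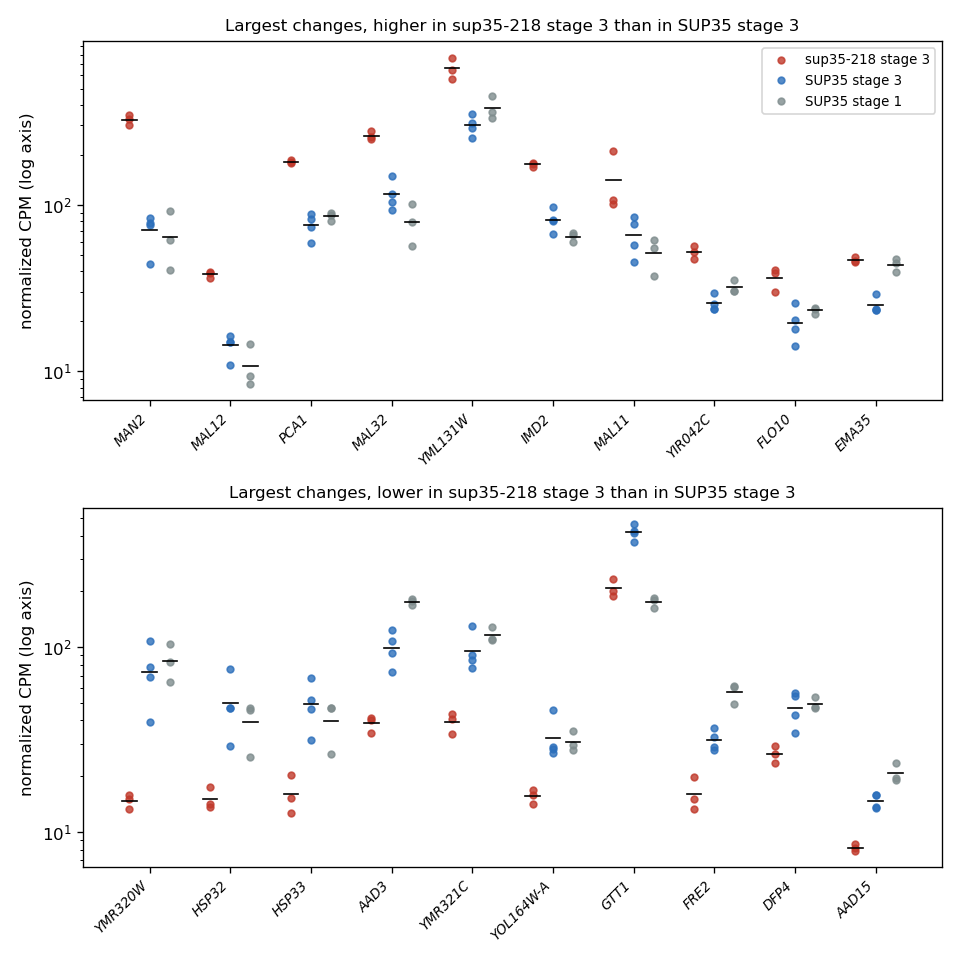
Normalized CPM on a log axis in each culture for the 10 genes with the largest rise (upper panel) and the 10 with the largest fall (lower panel) between sup35-218 stage 3 and SUP35 stage 3. Points are cultures and bars are group means. The genes were chosen among those called, with a mean count of 50 or more and no overlap of sup35-218 with SUP35 stage 3, so that separation is part of the choice, and *GTT1* and *EMA35* have SUP35 stage 1 values close to sup35-218.

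YMR320W at the right end of XIII, an open reading frame of unknown function, fell most among the genes with a mean count of at least 50. It had 15.8, 14.997 and 13.3 CPM in sup35-218 cultures, 108, 69.0, 78.1 and 39.4 CPM in SUP35 stage 3 cultures and 104, 83.0 and 64.8 CPM in SUP35 stage 1 cultures (log2FC -2.33, SE 0.29, adjusted p = 6.2e-05). Its neighbour YMR321C had 40.6, 43.6 and 33.6 CPM, against 129, 84.7, 90.2 and 76.7 CPM in SUP35 stage 3 cultures (log2FC -1.28). *FET4* on the same end, a low-affinity iron transporter gene, had 242, 220.1 and 210.5 CPM, against 342, 375, 306 and 425 CPM. *ADH6*, at 11659 bases from the outermost gene end, was looked at after its values were seen and had a log2FC of 0.23 (adjusted p = 0.090).

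*HSP32* and *HSP33* belong to the Hsp31 family of chaperone-like proteins and lie at the left end of XVI and the right end of XV. *HSP32* had 17.5, 13.6 and 14.0 CPM in sup35-218 cultures, 76.4, 46.6, 46.8 and 29.0 CPM in SUP35 stage 3 cultures and 46.6, 45.7 and 25.3 CPM in SUP35 stage 1 cultures. *HSP33* had 20.3, 15.3 and 12.5 CPM, against 67.7, 46.3, 51.7 and 31.5 CPM in SUP35 stage 3 cultures. The log2FC was -1.73 (SE 0.30) and -1.63 (SE 0.27), with adjusted p = 6.1e-04 and 4.6e-04 (edgeR). The coding sequences are 714 bases long and differ at 4 positions, so these values describe the pair rather than either gene. *SNO4*, the third copy in the windows, had 0 to 2 counts in sup35-218 cultures and 3 to 10 in SUP35 stage 3 cultures and was not tested.

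The upstream windows of *HSP32* and *HSP33* are given because the near identity of the pair reaches beyond the coding sequence (chrXVI:11487-11786, plus strand; chrXV:1079359-1079658, minus strand), with capitals as before.
HSP32: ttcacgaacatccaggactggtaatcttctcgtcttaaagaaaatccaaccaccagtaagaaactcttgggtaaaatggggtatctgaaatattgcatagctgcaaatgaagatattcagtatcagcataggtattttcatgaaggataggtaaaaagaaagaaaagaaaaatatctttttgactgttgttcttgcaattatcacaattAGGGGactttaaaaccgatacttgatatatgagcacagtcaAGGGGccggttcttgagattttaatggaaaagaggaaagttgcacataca
HSP33: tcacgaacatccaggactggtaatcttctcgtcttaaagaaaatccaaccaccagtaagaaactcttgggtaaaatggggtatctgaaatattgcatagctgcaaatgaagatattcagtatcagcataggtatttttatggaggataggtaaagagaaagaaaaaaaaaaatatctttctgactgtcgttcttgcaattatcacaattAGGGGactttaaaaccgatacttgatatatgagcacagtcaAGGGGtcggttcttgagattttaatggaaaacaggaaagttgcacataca
Aligned, the windows differ at 8 positions (97.3% identity). Both carry 2 AGGGG matches at the same spacing. Among the genes that fell, 12 of 36 (33.3%) hold AGGGG on either strand in this window, and 5 of 36 (13.9%) hold a Mig1-type match, beside the shares over all windows given for the genes that rose.

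*AAD3* and *AAD15* encode putative aryl-alcohol dehydrogenases. *AAD3* had 34.4, 41.3 and 40.4 CPM in sup35-218 cultures, 124, 92.3, 108 and 73.0 CPM in SUP35 stage 3 cultures and 177, 182 and 169 CPM in SUP35 stage 1 cultures. The log2FC was -1.36 against SUP35 stage 3 (adjusted p = 3.5e-05) and -2.19 against SUP35 stage 1 (adjusted p = 4.2e-07). SUP35 stage 3 cultures lay between the other 2 groups, and they were also lower than stage 1 (log2FC -0.82, adjusted p = 1.2e-03). *FRE2*, a ferric reductase gene of the iron regulon, had the same order of groups, with 19.7, 14.997 and 13.3 CPM, 36.3, 32.4, 27.8 and 28.7 CPM and 61.7, 60.3 and 49.2 CPM. *AAD15* had 7.89, 8.21 and 8.53 CPM, against 15.8, 13.5, 15.8 and 13.4 CPM (log2FC -0.84), and *DFP4* had 29.0, 26.3 and 23.6 CPM, against 56.4, 42.8, 54.1 and 34.2 CPM (log2FC -0.84, SE 0.17). YOL164W-A, a short reading frame at the left end of XV like *AAD15*, had 16.9, 14.1 and 15.8 CPM, against 45.6, 26.8, 28.9 and 28.1 CPM (log2FC -1.05).

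Y′ elements are the outermost repeats at many ends. The RefSeq annotation places a Y′ element in the telomere feature of 17 of the 32 ends, and 75 subtelomeric genes lie mostly inside these features. Lying inside such a feature does not place a gene in the Y′ element itself. Of the 75 genes 62 were repeated, 25 were at 0 in every culture and 22 were tested. In the main comparison 9 of the 22 fell and none rose (edgeR, 1 at an unadjusted p below 0.05, and 0 by DESeq2), with a median log2FC of -0.33. Against SUP35 stage 1, 8 fell and none rose (edgeR, 1 at an unadjusted p below 0.05, and 1 by DESeq2). Between SUP35 stage 3 and SUP35 stage 1 none changed (edgeR, 0 at an unadjusted p below 0.05 and 0 by DESeq2). Over all genes tested, 10.7% were higher and 12.6% lower in the main comparison, and 14.7% and 16.5% against SUP35 stage 1. Between SUP35 stages these shares were 7.21% and 6.63%. The grouping and the IDs named next were chosen after the values had been seen. All the genes that fell in the main comparison except YEL074W and YLR466C-B held 37.5% to 100% repeated windows. Reads can move between such copies, so these falls are not independent. The 75 genes summed to 815, 636 and 813 CPM in sup35-218 cultures and 1032, 1134, 832 and 856 CPM in SUP35 stage 3 cultures. In SUP35 stage 1 cultures they summed to 861, 1019 and 973 CPM. Of the members outside telomere features, 51 tested genes at ends with a Y′ element gave 9 higher and 17 lower calls in the main comparison. The 75 at ends without one gave 17 and 13, beside the same 10.7% and 12.6% of all genes.

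YBL113C at the left end of II had the most counts among them, with 171, 178 and 153 CPM in sup35-218 cultures, 276, 226, 253 and 236 CPM in SUP35 stage 3 cultures and 223, 257 and 254 CPM in SUP35 stage 1 cultures (log2FC -0.57, adjusted p = 7.8e-04). YEL077C at the left end of V had 59.4, 66.2 and 56.2 CPM, against 107, 124, 93.7 and 70.0 CPM in SUP35 stage 3 cultures (log2FC -0.70). *YRF1-5*, one of the Y′ helicase genes, had 67.3, 48.4 and 59.96 CPM, against 111, 123, 63.2 and 87.1 CPM (log2FC -0.71, SE 0.19, adjusted p = 9.7e-03). Its cultures overlapped because replicate 3 of SUP35 stage 3 was low. All of its windows (100%) are repeated, so this value is uncertain. Of the 8 *YRF1* genes 3 were tested and 2 fell, beside 12.6% of all genes tested. The deepest falls were in 2 unrepeated short reading frames: YEL074W had 4.23, 2.26 and 2.01 CPM, against 19.0, 16.1, 18.2 and 10.4 CPM, and YLR466C-B had 5.35, 4.81 and 4.01 CPM, against 16.6, 15.7, 12.6 and 13.1 CPM.

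Not every gene in these features fell. YLL067C and YLL066C at the left end of XII, with over 95% repeated windows, had log2FC of 0.25 and 0.30 (adjusted p = 0.332 and 0.206). YPR204W at the right end of XVI varied between cultures of a group more than between groups: it had 87.0, 17.0 and 86.3 CPM in sup35-218 cultures, 61.1, 89.4, 16.6 and 33.3 CPM in SUP35 stage 3 cultures and 46.9, 52.1 and 49.2 CPM in SUP35 stage 1 cultures. Replicate 2 of sup35-218 and replicates 3 and 4 of SUP35 stage 3 were low. Without replicate 2 of sup35-218, 7 of these genes were lower and 2 were higher in sup35-218 than in SUP35 stage 3.

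**Figure D3:**
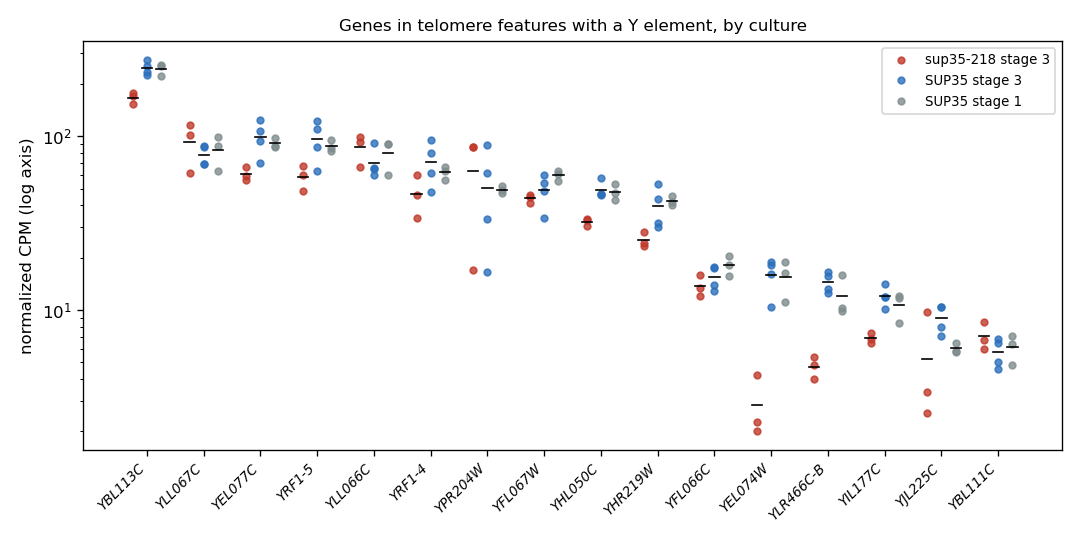
Normalized CPM on a log axis in each culture for the genes inside telomere features with a Y′ element that were tested and had a mean count of at least 20. Points are cultures and bars are group means. The sup35-218 cultures lie below both wild-type groups for YBL113C, YEL077C, YHL050C, YHR219W, YEL074W, YLR466C-B and YIL177C, and YPR204W is spread within groups.

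The products of the *COS* genes help to sort membrane proteins into the vacuolar pathway. Of 11 tested, 6 rose in SUP35 stage 3 cultures relative to SUP35 stage 1 and none fell (edgeR, 0 at an unadjusted p below 0.05, and 0 by DESeq2), with a median log2FC of 0.74. Over all genes tested, 7.21% were higher and 6.63% lower. More than 10% repeated sequence was found in 6 of the 11, so their values are not independent. Likewise 6 rose in sup35-218 cultures relative to SUP35 stage 1, with a median log2FC of 0.60, and none fell (edgeR, 1 at an unadjusted p below 0.05, and 0 by DESeq2). There 14.7% of all genes were higher and 16.5% lower. In the main comparison *COS5* and *COS10* rose, where 10.7% of all genes were higher, and the median was 0.02. *COS4* had 124, 136 and 135 CPM in sup35-218 cultures, 137, 128, 134 and 113 CPM in SUP35 stage 3 cultures and 84.7, 73.3 and 61.2 CPM in SUP35 stage 1 cultures. Its log2FC between SUP35 stage 3 and stage 1 was 0.81 (SE 0.12, adjusted p = 3.7e-04). *COS8*, which has no repeated window, had 57.7, 54.0 and 59.96 CPM, 57.4, 52.3, 59.4 and 46.7 CPM, and 36.6, 32.8 and 24.9 CPM in the same groups, so the pattern was not limited to repeated copies.

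*COS5* had 144, 164 and 168 CPM in sup35-218 cultures, 109, 111, 107 and 94.1 CPM in SUP35 stage 3 cultures and 85.6, 109 and 79.4 CPM in SUP35 stage 1 cultures (log2FC 0.59 in the main comparison, adjusted p = 1.4e-03). *COS9* and *COS12*, both unrepeated, were not called in any comparison. Without replicate 2 of SUP35 stage 1, 4 of the *COS* genes rose at stage 3 in SUP35 cultures.

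**Figure D4:**
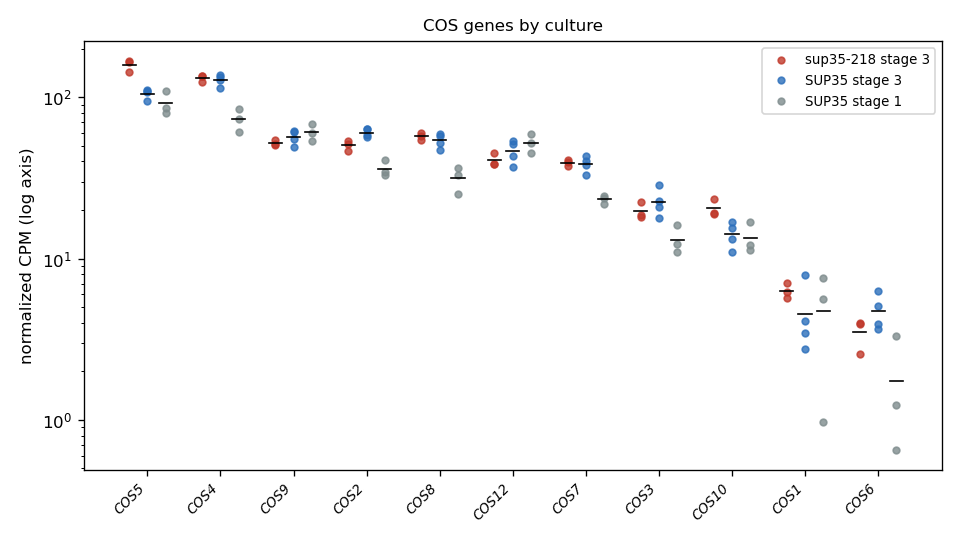
Normalized CPM on a log axis of the 11 tested *COS* genes in each culture, ordered by mean count. Points are cultures and bars are group means. For *COS4*, *COS2*, *COS8*, *COS7* and *COS3* the SUP35 stage 1 cultures lie below both stage 3 groups, and for *COS5* the sup35-218 cultures lie highest.

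The *PAU* genes encode seripauperins, small cell wall mannoproteins, and 19 members of the family (counting *DAN* and *TIR* genes) lay in the windows. Only 8 had enough counts to be tested. *PAU9*, *PAU10* and *PAU6* fell in the main comparison and none rose (edgeR, 0 at an unadjusted p below 0.05, and 0 by DESeq2). Over all genes tested, 12.6% fell and 10.7% rose. *PAU9* had 0.282, 1.41 and 0.753 CPM in sup35-218 cultures, 9.48, 6.30, 5.35 and 4.58 CPM in SUP35 stage 3 cultures and 8.77, 6.20 and 5.83 CPM in SUP35 stage 1 cultures (log2FC -2.94, SE 0.46, adjusted p = 2.7e-04). These sup35-218 values rest on 1, 5 and 3 counts. At 129 bases *PAU9* is shorter than a read and its repeated fraction was 100%, so its values are uncertain. *PAU6* had 3.66, 3.40 and 4.52 CPM, against 10.01, 8.82, 5.89 and 6.11 CPM. *PAU4*, which has no repeated window, had a log2FC of -0.55 (adjusted p = 0.222). Without replicate 2 of sup35-218 only 1 *PAU* gene was lower.

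The first 60 bases of 4 *PAU* coding sequences are shown because they let the likeness of the family be seen. *PAU3* and *PAU4* nevertheless have no 150-base window that occurs elsewhere. Capitals mark bases that differ from *PAU6* (R64, 5′ to 3′).
PAU6: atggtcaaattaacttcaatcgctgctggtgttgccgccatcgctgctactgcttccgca
PAU10: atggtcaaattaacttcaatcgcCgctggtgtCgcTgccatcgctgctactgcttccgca
PAU4: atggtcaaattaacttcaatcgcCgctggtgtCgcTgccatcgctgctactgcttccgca
PAU3: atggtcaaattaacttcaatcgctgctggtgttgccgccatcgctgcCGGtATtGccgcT
*PAU10* and *PAU4* differ from *PAU6* at 3 positions and *PAU3* at 7.

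Of 5 tested genes of the *SNZ*, *SNO* and *THI5* families, 1 rose and 1 fell in the main comparison and 3 were not called. These calls stand beside 10.7% higher and 12.6% lower over all genes tested. *THI5*, which acts in the synthesis of the thiamine precursor hydroxymethylpyrimidine, had 20.8, 22.4 and 16.8 CPM in sup35-218 cultures, 10.8, 8.50, 6.69 and 7.33 CPM in SUP35 stage 3 cultures and 4.84, 4.75 and 5.83 CPM in SUP35 stage 1 cultures (log2FC 1.25, adjusted p = 2.7e-04). *SNZ2*, a gene for vitamin B6 synthesis, had 4.51, 6.79 and 7.02 CPM, against 9.75, 12.6, 8.30 and 10.1 CPM (log2FC -0.72, adjusted p = 0.020). Its copy *SNZ3* was not called in this comparison. The copies share 53.7% of their windows, so the split between them is uncertain.

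A pair of neighbouring genes at the right end of IX was highest in SUP35 stage 3. *GTT1*, a glutathione transferase gene, had 234, 201 and 188 CPM in sup35-218 cultures, 412, 460.3, 372 and 422 CPM in SUP35 stage 3 cultures and 185, 180.1 and 163 CPM in SUP35 stage 1 cultures. The log2FC was -1.003 (SE 0.11, adjusted p = 2.0e-05) between sup35-218 and SUP35 at stage 3, and 1.24 (SE 0.11, adjusted p = 7.6e-06) between SUP35 stage 3 and stage 1. *HYR1*, which encodes a thiol peroxidase that senses hydroperoxides, had 323, 308 and 272 CPM, 443, 475, 429 and 505 CPM, and 223, 196 and 189.8 CPM in the same groups (log2FC -0.62 and 1.19), and it was also higher in sup35-218 than in SUP35 stage 1 (log2FC 0.57). *IRC24*, the next gene inward, was higher in SUP35 stage 3 than stage 1 (log2FC 0.93, adjusted p = 4.0e-04), and in the main comparison its log2FC was -0.23 (adjusted p = 0.170). Because the 2 comparisons share the SUP35 stage 3 cultures, a high value there lowers one and raises the other. The *GTT1* window holds 3 AGGGG matches (chrIX:424614-424913, minus strand).
GTT1: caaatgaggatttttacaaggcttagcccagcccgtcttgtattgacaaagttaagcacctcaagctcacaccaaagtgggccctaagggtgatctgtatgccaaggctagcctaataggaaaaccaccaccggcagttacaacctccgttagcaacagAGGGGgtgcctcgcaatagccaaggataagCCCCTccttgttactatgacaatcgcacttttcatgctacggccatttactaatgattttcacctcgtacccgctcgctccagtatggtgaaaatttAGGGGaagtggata

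At the right end of III, *EMA35* and YCR101C, the second of them picked after its values were seen, showed the opposite order. *EMA35* had 45.6, 46.1 and 48.7 CPM in sup35-218 cultures, 29.2, 23.3, 23.8 and 23.2 CPM in SUP35 stage 3 cultures and 44.5, 47.1 and 39.5 CPM in SUP35 stage 1 cultures. YCR101C had 24.8, 22.6 and 18.8 CPM, 7.64, 3.46, 8.83 and 6.11 CPM, and 9.68, 13.01 and 15.6 CPM. SUP35 stage 3 cultures were lowest for both genes. The log2FC of *EMA35* was 0.91 between sup35-218 and SUP35 at stage 3 (adjusted p = 9.8e-05) and -0.81 between SUP35 stage 3 and stage 1 (adjusted p = 4.8e-04). YCR099C, which overlaps *EMA35*, had 34.1, 30.6 and 32.4 CPM, 47.9, 37.5, 45.8 and 25.4 CPM, and 79.8, 77.5 and 61.6 CPM (log2FC -0.89 between SUP35 stage 3 and stage 1, adjusted p = 2.5e-03).

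**Figure D5:**
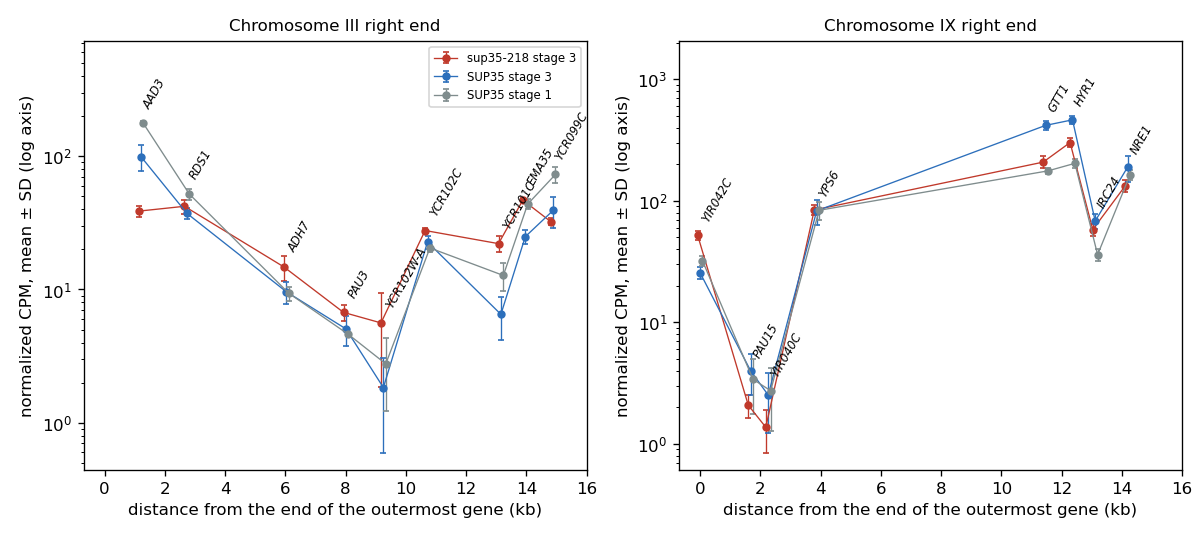
Mean normalized CPM (log axis) with SD of the tested genes at the right ends of III and IX against distance from the end of the outermost gene in kb, for the 3 groups (n = 3, 4 and 3). Lines join genes of a group in order of position. *GTT1* and *HYR1* are highest in SUP35 stage 3, and *EMA35* and YCR101C are lowest in SUP35 stage 3.

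In some genes replicate 2 of sup35-218 stood apart from the other 2 cultures. *SEO1*, a putative permease gene at the left end of I, had 66.2, 9.90 and 104 CPM in sup35-218 cultures, 9.22, 10.1, 10.97 and 16.8 CPM in SUP35 stage 3 cultures and 67.4, 41.1 and 25.3 CPM in SUP35 stage 1 cultures (log2FC 2.36 against SUP35 stage 3, SE 0.55, adjusted p = 4.1e-03). Replicate 2 of sup35-218 lay within the SUP35 stage 3 range while the other 2 were several times higher. *BDS1*, a sulfatase gene at the left end of XV, had 404, 122 and 274 CPM, against 123, 125, 110.3 and 123 CPM in SUP35 stage 3 cultures, with the same replicate low. YOL163W and YOL162W, next to *BDS1* and picked after their values were seen, had 22.8, 8.49 and 45.4 CPM and 31.5, 13.9 and 62.7 CPM in sup35-218 cultures and were not called. Between SUP35 stage 3 and stage 1, *SEO1* was lower (log2FC -1.93, adjusted p = 0.023), and leaving out single cultures of either group moved its adjusted p to between 0.051 and 0.104 in 4 cases.

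YNR071C, which resembles aldose epimerases, followed the stage and the allele. It had 6.48, 9.62 and 7.78 CPM in sup35-218 cultures, 25.02, 15.1, 13.1 and 7.94 CPM in SUP35 stage 3 cultures and 45.1, 40.7 and 29.5 CPM in SUP35 stage 1 cultures. Its log2FC was -2.27 between sup35-218 and SUP35 stage 1 (adjusted p = 7.3e-05), -0.95 between sup35-218 and SUP35 at stage 3 (adjusted p = 0.034) and -1.32 between SUP35 stage 3 and stage 1 (adjusted p = 3.4e-03). *IRC7*, which encodes a cysteine-degrading enzyme, had 138, 145 and 98.8 CPM, 89.8, 123, 99.0 and 91.6 CPM, and 178, 182 and 187 CPM in the same groups. It was lower in SUP35 stage 3 than in stage 1 (log2FC -0.85, adjusted p = 8.0e-04).

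A list of genes tied to silencing, chromatin or telomeres was measured beside the subtelomeric genes, and not all of them silence telomeres. Of 30 such genes, all were tested, and in the main comparison *HDA1* and *REB1* rose (log2FC 0.56 and 0.65) and *SIR1*, *SAS5* and *HST1* fell (-0.61, -0.56 and -0.53). These 2 higher and 3 lower calls of 30 stand beside 10.7% and 12.6% over all genes tested. *SIR2*, *SIR3* and *SIR4*, the core of the silencing complex, had log2FC of -0.09, 0.10 and 0.23 (adjusted p = 0.553, 0.435 and 0.112). The median of the list was 0.06. Whether these levels bear on the subtelomeric genes was not tested.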

How the data were processed

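RNA of 10 cultures was sequenced as paired 150-base reads. Per the labels and the study's methods, the authors trimmed reads with Trimmomatic, aligned them to the S288C genome, version R64-3-1, with HISAT2 and counted them per gene with featureCounts. Tool versions, strand setting and treatment of multiply mapping reads are not given in the sources used here. The deposited values are raw counts per gene with no normalization, in 1 table that also gives each gene's chromosome, start, end and length.

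Genes were tested with edgeR 4.0.16 (R 4.3.3, limma 3.58.1) by the quasi-likelihood test in 1 fit of 3 groups with TMM scaling. Genes with low counts were left out with filterByExpr, which kept 5856. Adjusted p-values are Benjamini-Hochberg values over these genes, and all adjusted p-values in the text come from this fit. A gene was called at an adjusted p below 0.05 and a log2FC past 0.5. CPM are TMM-normalized. The code was tested on simulated data. DESeq2 1.42.0, other scalings, filters, windows, cutoffs and leaving out each culture were tried as alternatives. Repeats, telomere features and sequences were read from the RefSeq R64 genome, in which 193 of the 262 genes matched, all at the same coordinates. Sequences and motifs were handled in Python 3.11.15 with Biopython 1.88.

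Named genes were, for the main comparison, the 10 largest rises and 10 largest falls among called genes whose cultures did not overlap between the groups and whose mean count reached 50, and 5 and 5 for each other comparison. To these were added members of repeated families (values for at most 5 each), the silent cassette genes and the member with most counts at an end. Called genes of the list tied to silencing were added too. The members, lists and tests were chosen with earlier results of these data known. No culture was left out, and the labels and methods differ on the plasmid backbone of SUP35 at stage 3 and on the medium.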

Additional observations from a re-analysis of the deposited data

Results flagged for a closer look

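Values standing apart were looked for in the 4 SUP35 stage 3 cultures, the only group of 4, over 85 sets of values. These were the genes checked and the share of all counts that the subtelomeric genes took. In 5 genes 1 culture lay so far from the nearest other that the gap passed Dixon's 95% critical share of the group's range, which chance passes in about 1 of 20 groups. *EMA35* had 29.2 CPM in replicate 1, *SNO3* had 9.78 CPM, *SOR2* had 4.09 CPM, YHL050C had 57.3 CPM in replicate 2 and YOL164W-A had 45.6 CPM in replicate 1.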

How the results depend on the processing

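Of 720 recomputed values of the 40 named gene comparisons, 704 kept their direction and their side of the threshold, 16 no longer passed and 0 reversed. The 16 fall on 11 genes. These genes were picked as the largest called changes with separated cultures, so the choice itself favoured keeping the call. Some of the recomputed values also came from leaving out a culture of the group not compared. Under glmTreat the calls of *MAL11*, *FLO10*, *DFP4* and *AAD15* in the main comparison and of *COS4*, *COS3*, *SEO1*, YNR071C, YCR099C, *FRE2* and *IRC7* between SUP35 stages were lost. *COS3* was also lost without replicate 2 of SUP35 stage 1, and *SEO1* without replicate 1 or 2 of SUP35 stage 1 or replicate 2 or 3 of SUP35 stage 3. Between sup35-218 and SUP35 at stage 3, testing against a log2FC of 0.5 (glmTreat) gave 15 higher and 13 lower, a cutoff of 1 gave 16 and 15, a 10 kb window 12 and 23, and a 30 kb window 60 and 67. Without repeated genes 20 were lower and the median was 0.0394. The median was -0.27 with DESeq2, -0.25 with no filter, 0.0164 with a 20 kb window and 0.0165 with a 30 kb window. Between sup35-218 and SUP35 stage 1, glmTreat gave 12 higher and 25 lower, the cutoff of 1 gave 10 and 25, 10 kb gave 13 and 24, 30 kb gave 70 and 88, and leaving out repeated genes gave 19 and 20. The median was -0.19 with DESeq2, -0.18 with no filter and 0.0796 without repeated genes. Between SUP35 stage 3 and stage 1, glmTreat gave 3 higher and 0 lower, the cutoff of 1 gave 4 and 2, 10 kb gave 8 and 5, 30 kb gave 21 and 32, and leaving out repeated genes gave 7 higher. The windows, filter and repeat settings change which genes are counted, and for the other settings the cause was not tested. At 10 kb 88 genes were tested, at 30 kb 331 and without repeated genes 84, against 148 in the main set. Over all genes in the main fit, 10.7% were higher and 12.6% lower against SUP35 stage 3. These shares were 14.7% and 16.5% against SUP35 stage 1, and 7.21% and 6.63% between SUP35 stages. For glmTreat and the cutoff of 1, shares over all genes were not computed.

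Leaving out each culture gave 24 to 30 higher, 29 to 44 lower and a median of -0.156 to -0.0105 for sup35-218 against SUP35 stage 3. Against SUP35 stage 1 it gave 25 to 37 higher, 36 to 42 lower and a median of -0.169 to 0.0150. Between SUP35 stages it gave 9 to 13 higher, 7 to 15 lower, with 7 without replicate 2 of SUP35 stage 1, and a median of -0.11 to -0.00058. Across genes, deviations from the group mean correlated at -0.24 to 0.41 between same-numbered cultures and at -0.43 to 0.34 between the others. These few pairs do not decide whether same-numbered cultures share more than a number. In a fit with a replicate block, 28 were higher and 40 lower against SUP35 stage 3, 30 and 42 against SUP35 stage 1, and 12 and 8 between SUP35 stages. Low counts limit the 114 untested genes, and repeats limit 64 of the 148 tested.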
